A study of Rattus norvegicus with 20 samples.

Results

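The miR-17-92 cluster and its paralog, the miR-106b-25 cluster, were followed in rat soleus muscle and dorsal root ganglia (DRGs) after sciatic nerve injury. The members were every miRNA on the array named miR-17, miR-18a, miR-19a, miR-19b, miR-20a, miR-92a, miR-25, miR-93 or miR-106b without a star, which gave 10 of the 350 rat miRNAs. Of these, 7 belong to miR-17-92 and 3 to miR-106b-25. The names alone decided membership, and no measured value was used.

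The tissues came from adult male Sprague-Dawley rats operated on at the sciatic nerve, the nerve that supplies the soleus, a slow postural muscle of the calf. In the denervation group the nerve had been cut and a segment removed, with the stump turned away, 6 months earlier. In the entrapment group a loose silastic tube had lain around the nerve for 6 months, and in the decompression group such a tube was taken out after 6 months and the animals were followed for 3 months more. The sham group was operated on without injury to the nerve. Each tissue had 3 arrays for each injury group and 1 for sham, each array from one RNA sample hybridised in a single colour. The labels do not say whether the sham array held pooled animals, nor its time after surgery. The decompression animals were studied later after the first operation than the others, so that time and decompression cannot be told apart.

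Both clusters are transcribed as one long precursor from which several hairpins are cut and loaded, as short single strands, onto Argonaute proteins that silence messenger RNAs. The miR-17-92 cluster is known as a target of MYC and as a promoter of proliferation and survival in lymphoid and other tumours, and its loss impairs the development of lung, heart and B cells. miR-17 and its seed mates repress the cell cycle inhibitor Cdkn1a, and miR-92a is known as a restraint on blood vessel growth in endothelium. The miR-106b-25 hairpins lie inside Mcm7, a subunit of the helicase that unwinds DNA for replication.

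A miRNA finds its targets mainly by its seed, bases 2 to 8, so the mature sequences are shown with the seed in capitals to make the families visible. Sequences and positions are those of RefSeq on the rat assembly GRCr8. The array's older names carry no arm, and the usual arm was taken for each. miR-17-5p, miR-20a, miR-93 and miR-106b share a seed, so that this family has 4 members drawn from both clusters:
miR-17-5p: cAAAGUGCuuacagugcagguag
miR-20a: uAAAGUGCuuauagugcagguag
miR-93: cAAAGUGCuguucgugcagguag
miR-106b: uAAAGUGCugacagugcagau
miR-19a and miR-19b form the next family and differ at 1 base of 23:
miR-19a: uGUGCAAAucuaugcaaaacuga
miR-19b: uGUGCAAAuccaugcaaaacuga
miR-92a of the first cluster and miR-25 of the other share the third seed:
miR-92a: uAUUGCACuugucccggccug
miR-25: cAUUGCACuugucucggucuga
miR-18a has a seed of its own among the members, close to that of miR-17-5p:
miR-18a: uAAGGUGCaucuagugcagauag

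The 6 hairpins of miR-17-92 lie within 785 bases on the plus strand of chromosome 15, at chr15:98587848-98588632, and no protein-coding gene of the RefSeq table contains them. The hairpins of miR-25 and miR-93 lie on the minus strand of chromosome 12, at chr12:22156641-22156724 and chr12:22156844-22156930, both within Mcm7. Mature miR-106b lies at chr12:22157103-22157123. A further cluster on the minus strand of the X chromosome, within chrX:137342777-137343647, holds further copies of miR-17-5p, miR-19b and miR-92a. Each of these has 2 loci with one and the same mature sequence. Their signal is therefore the sum over both loci, and the array cannot assign it to a cluster. miR-17-5p and miR-20a differ at 2 of 23 bases, and how far the probes tell such close relatives apart was not tested.

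The libraries did not all stand alike. The 75th percentile of the soleus arrays, over the 108 miRNAs detected on all 10, ran from 409 intensity units on the sham array to 2539, so the sham array was the dimmest and every soleus comparison with sham leans on its scaling. The files of soleus sham and of denervation arrays 1 and 2 share a layout that differs from that of the other 17 files. Array control features placed sham with denervation, apart from both other groups and without overlap, for 12 of 45 features in soleus and 24 of 45 in the DRGs. The tissue labels were checked against marker miRNAs: 4 of 5 muscle miRNAs were detected on all soleus arrays and 5 of 5 neuronal ones on all DRG arrays, and miR-9, miR-124 and miR-183 were detected on no soleus array. 4 of 5 muscle miRNAs were detected on all DRG arrays too, with a summed scaled signal of 244 to 391 there and 59380 to 360891 in soleus, each on the scale of its tissue. In the authors' processed table the DRG columns named entrapment hold the signals of the scanner files of decompression and the reverse. The labels of the scanner files were followed, which of the 2 is right is not known, and under the other naming every DRG value given for entrapment would be one for decompression and the reverse. In bulk tissue, fewer cells of a type and less RNA per cell cannot be told apart.

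Below, a level is the scaled signal, the background-subtracted intensity after each array was brought to a common 75th percentile within its tissue, and differences are on the log2 scale. Detection calls came from the scanner software. miR-20a, miR-93, miR-106b, miR-19b, miR-92a and miR-25 were detected on all 20 arrays. miR-17-5p was detected on 8 of 10 soleus arrays and on all 10 DRG arrays, and miR-19a on 7 of 10 and 9 of 10. miR-18a was detected on soleus denervation array 2 and on the DRG sham array alone, at scaled signals of 4.01 and 6.91. miR-17-3p, the other arm of the miR-17 hairpin, was detected on none. The 8 members detected on at least 3 arrays of a tissue were tested in each tissue, among 174 miRNAs in soleus and 220 in the DRGs, and miR-18a and miR-17-3p were left out in both.

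**Figure D1:**
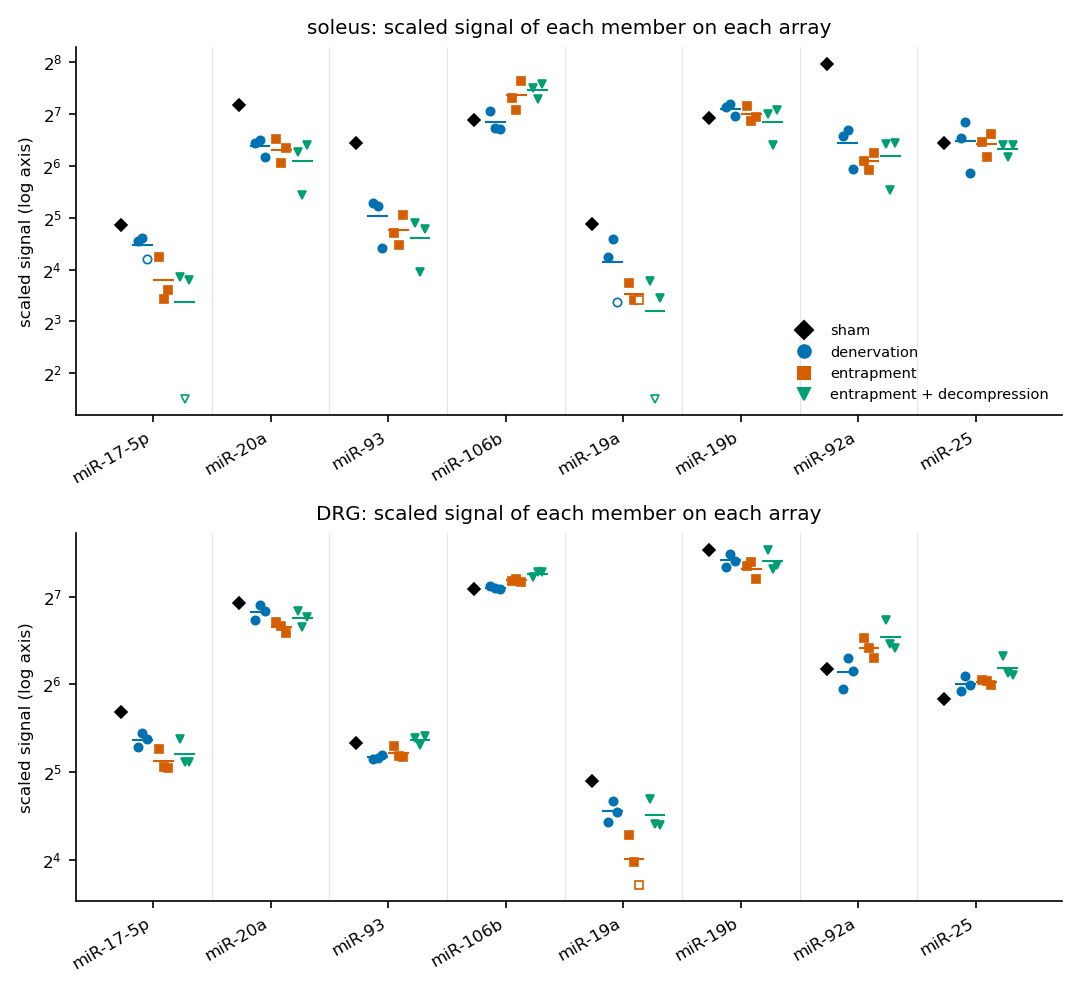
Scaled signal (log axis) of the 8 tested members on every array, soleus above and DRGs below, with 1 sham array (diamond) and 3 arrays for each injury group; horizontal lines mark group means and open symbols arrays on which the miRNA was not detected. In soleus, miR-92a lay at 250 on the sham array and between 46.3 and 103 on the 9 injury arrays, and in the DRGs the groups lay close together.

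In soleus, miR-92a and miR-93 stood below sham after every injury, a direction that held under each of the scalings tried but turned for miR-93 after denervation when the arrays were left unscaled (0.02), and for both after denervation and entrapment in the authors' processed table. miR-92a measured 250 on the sham array, 95.1, 103 and 61.4 after denervation, 67.9, 60.5 and 76.2 after entrapment and 85.9, 46.3 and 86.6 after decompression. All 9 injury arrays were below the sham array by more than 2-fold, and the 3 injury groups overlapped one another. The log2 difference from sham was -1.56 ± 0.47 (SE) after denervation, -1.88 ± 0.47 after entrapment and -1.83 ± 0.47 after decompression, or 2.96-, 3.68- and 3.57-fold lower. limma, fitted to all 174 miRNAs on the 10 arrays with the spread shared among groups, gave adjusted p = 0.0359, 0.0174 and 0.0171. The sham array has no replicate, so these p-values assume that it varies as the injury arrays do. The denervation call was lost without denervation array 1 or 2, any entrapment array or decompression array 1, and its adjusted p ran from 0.0152 to 0.0652 over the arrays left out in turn. The other 2 calls held, with adjusted p up to 0.0489 and 0.0317.

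miR-93, a member of the miR-17 seed family made from the Mcm7 locus, behaved alike. Its scaled signal was 87.0 on the sham array, 38.9, 37.4 and 21.5 after denervation, 25.9, 22.1 and 33.0 after entrapment and 29.8, 15.5 and 27.5 after decompression. Again every injury array was more than 2-fold below sham and the injury groups overlapped. The differences were -1.47 ± 0.50, -1.71 ± 0.50 and -1.90 ± 0.50, with limma adjusted p = 0.0619, 0.0340 and 0.0215. Denervation thus missed the threshold, and passed it without decompression array 2 (adjusted p = 0.0283). The entrapment call was lost without denervation array 2 or any one of the entrapment arrays, with adjusted p from 0.0170 to 0.0880, and the decompression call held, up to 0.0354. Within the shared file layout, denervation arrays 1 and 2 lay below sham by -1.16 and -1.22 for miR-93 and by -1.40 and -1.27 for miR-92a.

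Counted over the members, limma called 1 of 8 lower after denervation, 2 of 8 after entrapment and 2 of 8 after decompression, and 0 of 8 higher in each. Across all 174 miRNAs tested, 14.9%, 19.5% and 21.8% were called lower in the same comparisons and 10.9%, 9.77% and 9.77% higher, so that the members' share was near the background. By the rule of a 2-fold difference from sham on each of the 3 arrays, which follows the threshold named in the methods, 2, 3 and 4 of the 8 members were lower, against 18.4%, 27% and 27.6% of all miRNAs, and 0 were higher, against 15.5%, 10.9% and 13.2%. The median log2 difference of the members was -0.60, -0.98 and -1.47, and that of all tested miRNAs -0.09, -0.40 and -0.27. Without decompression array 2, on which miR-17-5p and miR-19a were not detected, the last pair of medians was -0.92 and -0.28. In simulated data, scaling to the percentile added false calls in some comparisons.

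miR-17-5p and miR-19a were the dim members in soleus. miR-17-5p measured 28.9 on the sham array, 23.4, 24.4 and 18.4 after denervation, 18.9, 10.7 and 12.2 after entrapment and 14.4, 0.807 and 13.9 after decompression, and it was not detected on denervation array 3 or decompression array 2. All 9 injury arrays lay below sham. The mean difference was -1.80 ± 0.82 after decompression, with limma adjusted p = 0.132, and it came to -1.02 without decompression array 2. It passed the 2-fold rule after decompression. miR-19a measured 29.5 on the sham array, 10.3 to 24.2 after denervation, 10.6 to 13.3 after entrapment and 13.8, 0.815 and 11.0 after decompression. It was not detected on denervation array 3, entrapment array 3 or decompression array 2. It passed the 2-fold rule after entrapment and decompression but not limma's threshold, with adjusted p = 0.233 and 0.0988, and the decompression difference of -1.97 came to -1.25 without decompression array 2.

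miR-20a, the seed mate of miR-17-5p from the same precursor, lay at 143 on the sham array and between 43.1 and 91.0 on the injury arrays, all of them below sham. Its differences of -0.80, -0.87 and -1.13 did not pass limma's threshold (adjusted p = 0.203, 0.168 and 0.0782). The remaining members did not stand apart from sham in this way. miR-19b measured 121 on the sham array and 84.3 to 146 on the injury arrays, on both sides of it. miR-25 measured 87.2 on the sham array and 58.1 to 115 on the injury arrays. miR-106b measured 118 on the sham array, 104 to 134 after denervation, 135 to 199 after entrapment and 156 to 191 after decompression. Its entrapment and decompression arrays were all above sham, by 0.46 ± 0.35 and 0.58 ± 0.35, with limma adjusted p = 0.357 and 0.251.

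**Figure D2:**
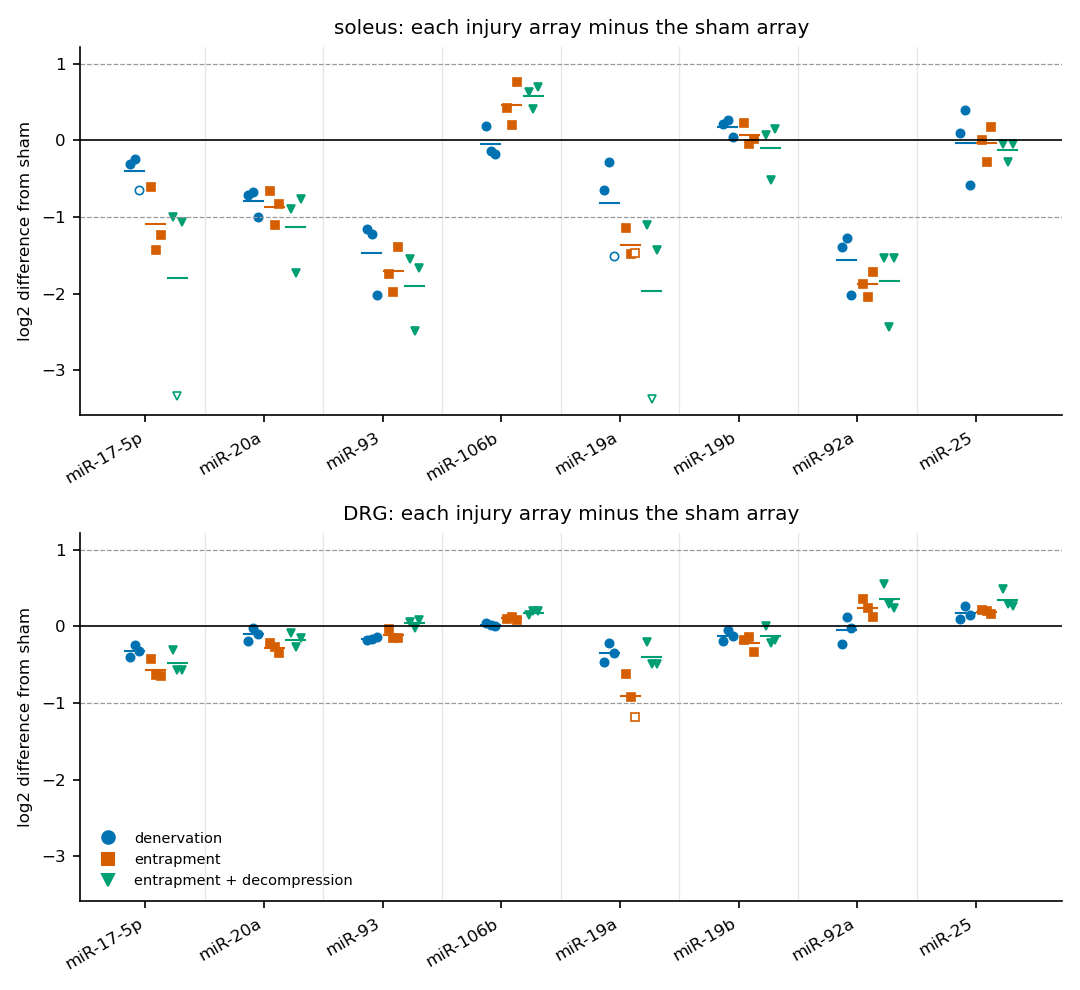
Log2 difference of each injury array from the sham array of its tissue for the 8 tested members, soleus above and DRGs below on the same axis; points are single arrays, short lines group means, dashed lines a 2-fold difference and open symbols arrays on which the miRNA was not detected. In soleus miR-92a and miR-93 lay beyond 2-fold on all 9 injury arrays, miR-19b and miR-25 lay around 0, and no member passed 2-fold on all 3 arrays of a DRG group.

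How far the soleus members stood from sham depended on the scaling of the arrays. For miR-92a the difference after denervation was -1.57 with median scaling, -1.34 with a loess curve on the sham array, -1.89 with quantile normalization, -1.27 with the percentile taken over all miRNAs and -0.08 with no scaling. limma's calls held for all 3 injuries with median scaling and for entrapment and decompression with loess, and for none with the other 3. The values of the authors' processed table differ from the scanner intensities by a divisor for each array. It was 100 for sham, 38.7 to 100 for the denervation and entrapment arrays, and 58.5, 1222 and 52.2 for decompression arrays 1, 2 and 3. In that table miR-92a was 0.37 and 0.31 above sham after denervation and entrapment. After decompression it was -1.11 from sham, and none of these differences was called. The part of the divisors in them, among them the 1222 of decompression array 2, was not tested. The whole array moved with these choices. Without scaling the median of all tested soleus miRNAs was 1.32, 1.04 and 1.01 above sham. Relative to that median, miR-92a lay between -1.97 and -1.29 in all 3 comparisons under the 6 scalings and miR-93 between -1.63 and -0.84. miR-106b was 1.04 to 1.36 above sham after entrapment and decompression with quantile normalization or the percentile over all miRNAs, and passed limma's threshold there and under none of the other scalings.

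**Figure D3:**
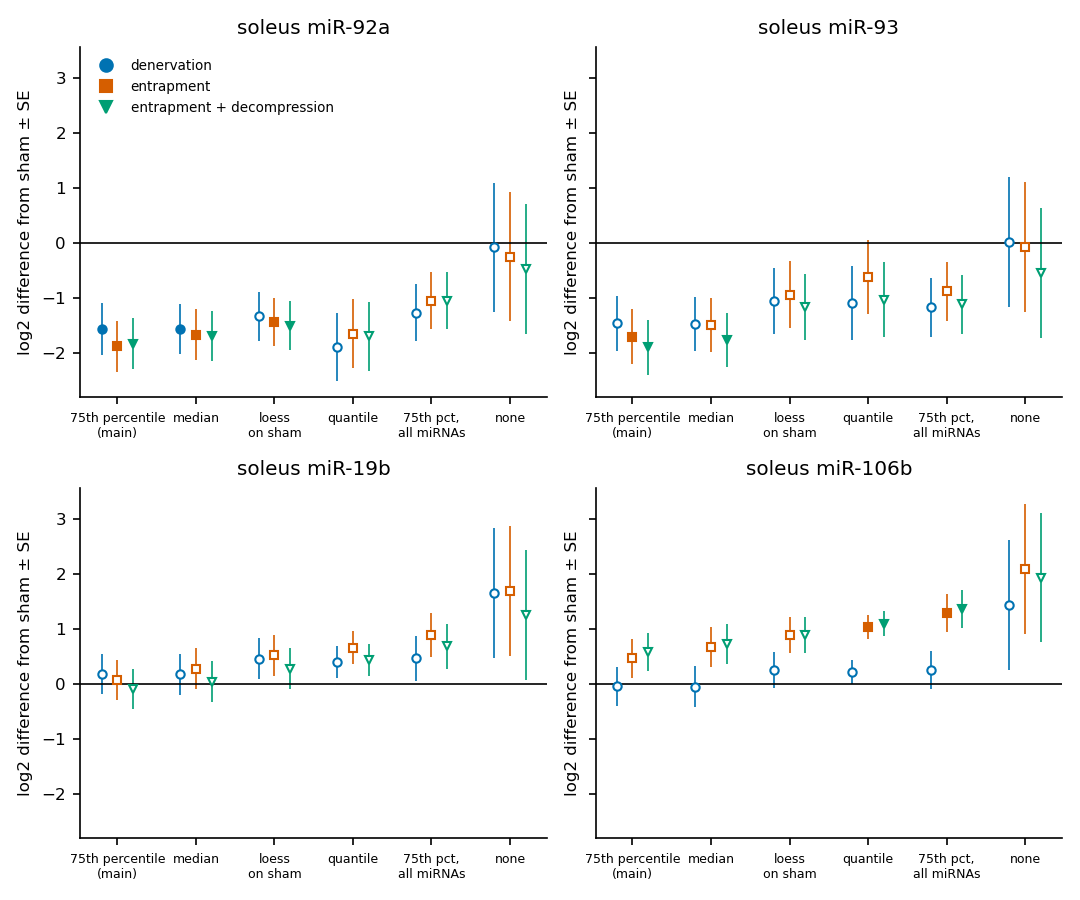
Log2 difference from sham (± SE of the limma fit, 10 arrays) of 4 members in soleus after denervation, entrapment, and entrapment with decompression, under 6 ways of scaling the arrays; filled symbols passed limma's adjusted threshold. miR-92a and miR-93 lay below miR-19b and miR-106b under each of the 6 scalings, while the distance from 0 moved with the scaling, and without scaling miR-92a lay at -0.08 after denervation.

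A ratio of a pair of members on the same array is free of the array's scaling factor, and members named for one cluster can be compared in this way. An offset in the background does not cancel in a ratio. Before scaling, the undetected miR-17-3p read -1.57 on soleus sham and -3.16 to 0.04 after denervation. It read -5.55 to -4.25 after entrapment and -10.3 to -4.86 after decompression. The part of this offset in the ratios was not tested. miR-92a and miR-19b each sum over 2 loci, so their ratio is not one of products of a single precursor. Such a ratio shows that the pair moved unequally and not which of them moved. This comparison was chosen after the values were seen. For the 6 members detected on all 20 arrays there are 3 pairs within each cluster. In soleus, the log2 ratio of miR-92a to miR-19b was below that of the sham array on 9 of 9 injury arrays. It differed from sham by -1.61, -1.54 and -2.07 after denervation, by -2.11, -1.995 and -1.73 after entrapment and by -1.61, -1.91 and -1.68 after decompression. The 3 injury groups overlapped and the sham array stood alone.

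The ratio of miR-93 to miR-106b differed from the sham array by -1.34, -1.08 and -1.84 after denervation, by -2.17, -2.18 and -2.16 after entrapment and by -2.17, -2.90 and -2.36 after decompression. Here the denervation arrays lay between the sham array and the other 6, with no overlap. The ratio of miR-93 to miR-25 differed from sham by -1.26 to -2.21 over the 9 injury arrays, that of miR-92a to miR-20a by -0.60 to -1.22 and that of miR-20a to miR-19b by -0.84 to -1.21. miR-25 to miR-106b was lower on 8 of 9. Ratios at least 2-fold from sham in the same direction on all 9 injury arrays occurred for 3 of the 6 pairs and for 24.5% of all 5778 pairs of miRNAs detected on every soleus array. The sham array fell outside all 9 injury arrays for 5 of the 6 pairs and for 53.9% of all pairs. Departures of this kind were thus common on these arrays. The entrapment and decompression arrays parted from sham and denervation for 2 of 6 pairs, miR-93 to miR-106b and miR-25 to miR-106b, and for 15.2% of all pairs.

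**Figure D4:**
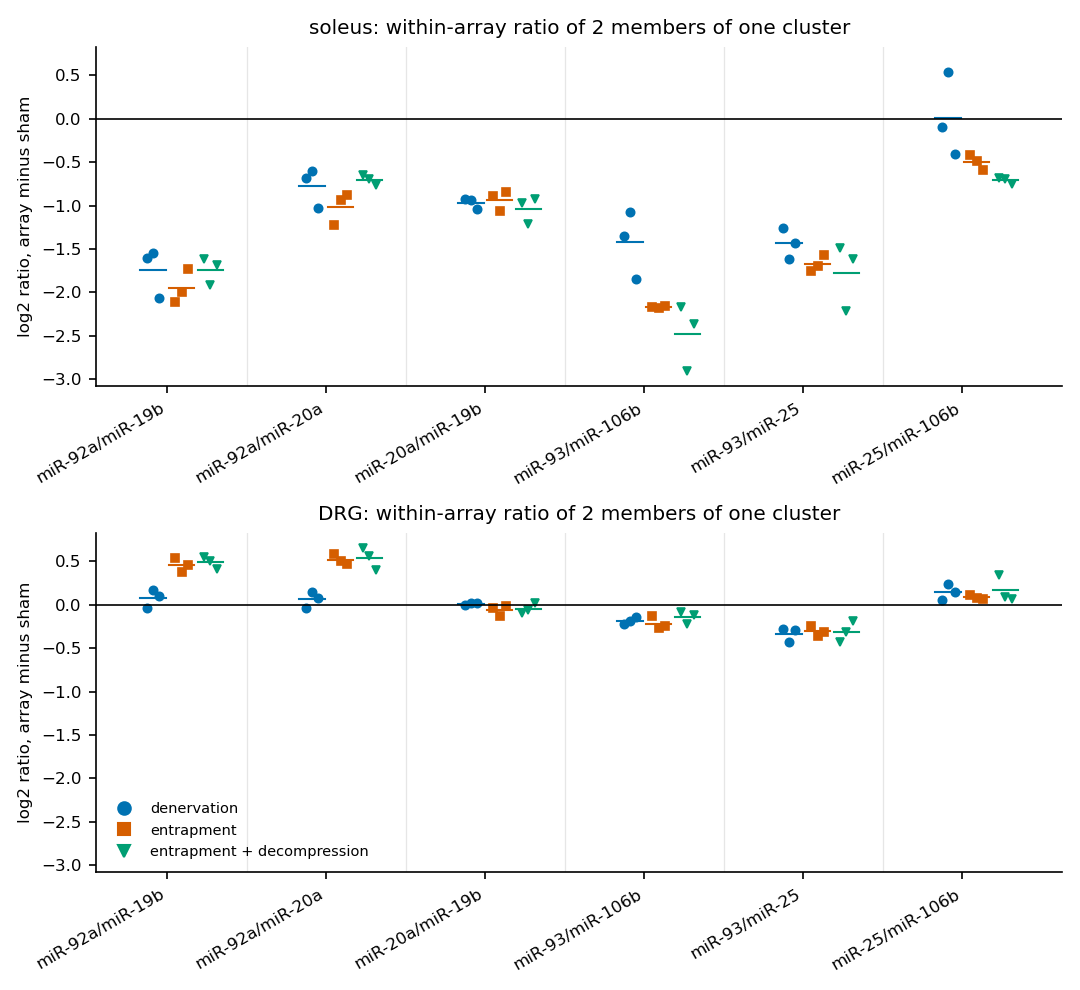
Log2 ratio of 2 members of one cluster on the same array, as the difference from the sham array of the tissue, for 3 pairs of miR-17-92 and 3 of miR-106b-25; points are the 9 injury arrays of soleus (above) and of the DRGs (below), short lines group means. In soleus miR-92a to miR-19b lay between -2.11 and -1.54 on all 9 arrays, and in the DRGs between -0.04 and 0.55.

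Markers of other cell types moved beside these soleus results. The summed scaled signal of miR-126 and miR-126*, miRNAs of endothelium, was 382 on the sham array and 1101 to 1802 on the injury arrays, with 1 of the 2 detected on all 10. Leukocyte miRNAs, of which 3 of the 4 on the array were detected throughout, summed to 718 on the sham array, 497 to 799 after denervation, 359 to 473 after entrapment and 329 to 463 after decompression. Those of red blood cells, 2 of 2 detected throughout, ran from 207 to 2383 on the injury arrays with the sham array at 1244. Schwann cell miRNAs, 1 of 2 detected throughout, ran from 51.9 to 222 with sham at 108, and muscle miRNAs, 4 of 5 detected throughout, from 59380 to 360891 with sham at 207581. The part of these cells in the results was not tested.

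Between the injury groups of soleus, limma called 0 of 8 members in any of the 3 comparisons. At an unadjusted p under 0.05 there were 0 between entrapment and denervation, 2 between decompression and denervation and 0 between decompression and entrapment. Across all 174 miRNAs, 11.5% were called lower and 0% higher in entrapment than in denervation, 12.6% and 1.15% in decompression than in denervation, and 0% either way in decompression against entrapment. Over the 3 comparisons the largest member difference was that of miR-17-5p, lower in decompression than in denervation by -1.40 ± 0.58 with limma adjusted p = 0.140, and it includes decompression array 2, on which the miRNA was not detected. For miR-92a these differences were -0.32 ± 0.33, -0.27 ± 0.33 and 0.05 ± 0.33. miR-106b, whose 6 entrapment and decompression arrays lay above all 4 of sham and denervation, exceeded denervation by 0.51 ± 0.25 and 0.62 ± 0.25 (limma adjusted p = 0.242 and 0.131). Such a split was found for 1 of 8 members and for 14.4% of all soleus miRNAs. With quantile normalization or the percentile over all miRNAs, miR-106b was called higher in both comparisons with denervation, by 0.83 to 1.11.

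In the DRGs, where the cell bodies of the injured sensory neurons lie, the members stayed within 2-fold of sham in group mean and 0 of 8 passed the 2-fold rule in any group, against 1 call with no scaling and 2 with median scaling. The share of all 220 miRNAs passing it downwards was 0.909% after denervation, 11.4% after entrapment and 14.5% after decompression. limma called 0 of 8 members after denervation, with 0 at an unadjusted p under 0.05, while 0% of all miRNAs were called lower there and 0.455% higher. After entrapment it called 2 of 8 lower, against 17.7% of all, and after decompression 1 of 8 lower, against 19.1%. It called 0 of 8 higher after either, against 2.27% and 1.82%.

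The members called were miR-17-5p and miR-19a, both named for the miR-17-92 cluster, though miR-17-5p also counts signal from its X-linked copy. miR-17-5p measured 51.6 on the sham array, 38.9, 43.5 and 41.4 after denervation, 38.4, 33.3 and 33.0 after entrapment and 41.5, 34.8 and 34.8 after decompression. The sham array was the highest of the 10. All denervation arrays lay above all entrapment arrays, narrowly, and the decompression arrays overlapped both. The difference from sham was -0.57 ± 0.14 for entrapment, with a limma adjusted p of 0.0256, -0.48 ± 0.14 for decompression (adjusted p = 0.0481) and -0.32 ± 0.14 after denervation (adjusted p = 0.322). The entrapment call was lost without entrapment array 2 (adjusted p = 0.0663). The decompression call was lost without any denervation array, entrapment array 2 or 3, or decompression array 2 or 3, with adjusted p up to 0.114.

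miR-19a, which shares its seed with miR-19b, measured 29.8 on the sham array, 21.6, 25.5 and 23.3 after denervation, 19.4, 15.7 and 13.1 after entrapment and 25.8, 21.2 and 21.1 after decompression. It was not detected on entrapment array 3. The entrapment arrays were below all others, without overlap. The difference was -0.91 ± 0.21 from sham (limma adjusted p = 0.0191), a call that held with each array left out and was lost with median, quantile or loess scaling, and -0.56 ± 0.15 from denervation (adjusted p = 0.0220). The latter was lost without denervation array 2 or 3 or entrapment array 2, with adjusted p up to 0.0716, and also with quantile normalization (-0.083, adjusted p = 0.747) and with median scaling, where the direction turned (0.058, adjusted p = 0.818). After decompression miR-19a lay -0.40 ± 0.21 from sham, with adjusted p = 0.219. Unscaled signals of the undetected miR-17-3p ran from -9.17 to -7.40 in entrapment and from -7.25 to -5.79 in decompression. In sham and denervation they ran from -1.91 to 0.11. Unscaled miR-19a was 13.3 to 16.1 in entrapment against 34.3 in sham, and miR-17-5p 29.0 to 33.3 against 59.5. How much of the miR-17-5p and miR-19a differences this background offset makes up was not tested. miR-19b measured 185 on the DRG sham array and 147 to 186 on the injury arrays, and its differences from sham of -0.12, -0.22 and -0.13 passed no threshold.

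miR-92a and miR-93 were a little higher after decompression than after denervation in the DRGs, a direction that turned for both with no scaling. miR-92a measured 72.1 on the sham array, 61.5, 78.5 and 71.1 after denervation, 92.7, 85.1 and 78.8 after entrapment and 106.2, 88.0 and 85.1 after decompression. The sham and denervation arrays were all below the entrapment and decompression arrays, by a margin of 78.5 against 78.8. Such a split was found for 2 of 8 members, miR-92a and miR-106b, and for 34.1% of all DRG miRNAs. The decompression arrays exceeded denervation by 0.40 ± 0.12 (limma adjusted p = 0.0361), and the call was lost without denervation array 1 or 3, entrapment array 2, or decompression array 1 or 2, with adjusted p up to 0.127.

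miR-93 measured 40.2 on the sham array, 35.4 to 36.6 after denervation, 36.1 to 39.3 after entrapment and 39.5 to 42.5 after decompression. It exceeded denervation by 0.20 ± 0.07 after decompression, with limma adjusted p = 0.0476. That call held when entrapment array 1 was left out and was lost when any of the other 8 injury arrays was, with adjusted p up to 0.150. In this comparison 2 of 8 members were higher, against 9.09% of all miRNAs, and 0 lower, against 27.7%. In entrapment against denervation 1 of 8 was lower, against 27.3%, and 0 higher, against 8.18%. Between decompression and entrapment limma called 0 of 8 members and 0% of all miRNAs either way, with 1 member at an unadjusted p under 0.05.

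miR-106b, miR-25 and miR-20a passed no threshold in the DRGs. miR-106b measured 136 on the sham array and 136 to 155.4 on the injury arrays, a narrow band. miR-25 measured 57.2 on the sham array and 60.9 to 80.1 on the injury arrays, all above it, and the decompression difference of 0.35 ± 0.12 had a limma adjusted p of 0.0735. miR-20a measured 122 on the sham array and 96.02 to 120 on the injury arrays, all below it. In the DRGs the summed signal of Schwann cell miRNAs was 7971 on the sham array and 9707 to 12300 on the injury arrays, with 1 of 2 detected throughout. Leukocyte miRNAs, 4 of 4 detected, summed to 898 on the sham array, 671 to 1091 after denervation, 488 to 650 after entrapment and 722 to 953 after decompression. Those of red blood cells, 2 of 2 detected, summed to 2998 on the sham array, 678 to 1524, 881 to 2881 and 1395 to 4178 in the same order. The part of these cells was not tested. Directions in the DRGs also turned with the scaling. With median scaling, which placed the median of all miRNAs 0.73 above sham after entrapment and after decompression, no member was called lower and miR-17-5p lay 0.27 and 0.39 above sham. Without scaling, that median was -0.47 in both, and miR-92a and miR-93 lay below denervation after decompression by -0.03 and -0.23.

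Of the ratios within one array, those of miR-92a did not repeat the soleus pattern in the DRGs. Those of miR-93 lay below sham in both tissues, by less in the DRGs. The log2 ratio of miR-92a to miR-19b differed from the sham array by -0.04, 0.17 and 0.10 after denervation, by 0.54, 0.38 and 0.46 after entrapment and by 0.55, 0.50 and 0.41 after decompression. The entrapment and decompression arrays were thus all above the sham and denervation arrays. miR-92a to miR-20a showed the same split, with -0.03 to 0.15 after denervation and 0.40 to 0.65 on the other 6. These were 2 of the 6 pairs, against 33.9% of all 15051 pairs of miRNAs detected on every DRG array. miR-93 to miR-25 differed from sham by -0.19 to -0.43 and miR-93 to miR-106b by -0.08 to -0.27, each below it on 9 of 9 arrays, while miR-25 to miR-106b was above it on 9 of 9, by 0.05 to 0.34. The sham array thus fell outside the 9 injury arrays for 3 of the 6 pairs, against 33% of all pairs. A ratio at least 2-fold from sham on all 9 arrays was found for 0 of the 6 pairs and for 0.0664% of all pairs.

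In a fit of all 20 arrays together, 6 of 8 members had higher levels in the DRGs than in soleus, averaged over the 4 groups of each tissue, a direction that turned for some with other scalings. The log2 differences were 1.80 ± 0.28 for miR-17-5p, 1.12 ± 0.28 for miR-19a, 0.95 ± 0.11 for miR-19b, 0.82 ± 0.14 for miR-20a, 0.59 ± 0.16 for miR-93 and 0.52 ± 0.10 for miR-106b, with limma adjusted p from 1.09e-06 to 0.00402. miR-92a and miR-25 differed by 0.16 ± 0.16 and 0.10 ± 0.13 and were not called. Yet 63% of all 235 miRNAs tested were called higher in the DRGs, and their median difference was 1.05, so that of the members only miR-17-5p and miR-19a exceeded that median. The direction also turned with the scaling of the 20 arrays. With the percentile over all miRNAs 1 member was higher and 3 were lower, with quantile normalization 0 and 3, and with no scaling 2 and 0. Tissue and array batch cannot be told apart in this design.

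The ratios within one array compare the tissues without that scaling. A two-sided exact permutation test exchanged the tissue labels within each of the 4 groups, 16000 arrangements with a smallest possible p of 0.000125, and the p-values were adjusted over the 6 pairs. The log2 ratio of miR-92a to miR-19b differed (DRG minus soleus) by -0.79 (exact permutation, adjusted p = 0.0193) and that of miR-92a to miR-20a by -0.66 (exact permutation, adjusted p = 0.00975). miR-25 to miR-106b differed by -0.42 and miR-93 to miR-25 by 0.48 (exact permutation, adjusted p = 0.0193 and 0.0266). With both sham arrays left out, the differences were -0.26, -0.36, -0.28 and 0.81, all still with an exact permutation adjusted p from 0.0015 to 0.022. miR-93 to miR-106b differed by 0.07 with the sham arrays and by 0.53 without them, and miR-20a to miR-19b by -0.13 and 0.10, the latter values with exact permutation adjusted p = 0.0105 and 0.022. The share of all pairs of miRNAs that differ between the tissues in this way was not computed. These differences therefore cannot be read as particular to the members. Of all 235 single miRNAs, limma called 63% higher and 18.7% lower in the DRGs.

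The injury effect itself was compared between the tissues in the fit of 20 arrays. The difference from sham was greater in the DRGs than in soleus, that is, less far below sham or above it, for miR-92a after all 3 injuries and for miR-93 after entrapment and decompression. For miR-92a the effect differed by 1.54 ± 0.52 after denervation, 2.31 ± 0.52 after entrapment and 2.37 ± 0.52 after decompression, with limma adjusted p = 0.0446, 0.00491 and 0.00343. The first call was lost without soleus denervation array 3, soleus entrapment array 1 or 2, DRG denervation array 2 or 3, DRG entrapment array 1, 2 or 3 or DRG decompression array 2 or 3, with adjusted p up to 0.0861. For miR-93 it differed by 1.78 ± 0.53 and 2.11 ± 0.53, with limma adjusted p = 0.0224 and 0.00820. Across all 235 miRNAs, 14.9%, 18.7% and 18.7% were called in that direction in the 3 comparisons with sham and 8.51% in the other direction in each, where no member was. Between injury groups limma called 0 of 8 members in each comparison, with 0, 2 and 0 at an unadjusted p under 0.05 in entrapment against denervation, decompression against denervation and decompression against entrapment. Of all miRNAs, 5.96%, 8.09% and 0% were called greater in the DRGs in these comparisons and 2.98%, 2.98% and 0% smaller. With no scaling, or with the percentile over all miRNAs, none of the 5 differences was called. With quantile normalization those of miR-92a were and those of miR-93 were not.

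Of the 9 relatives of the clusters on the array, 3 were detected on every array of one tissue and on none of the other. miR-363 and miR-20b-5p come from the X-linked paralog cluster, and miR-32 from a locus of its own inside Tmem245. They are shown because miR-363 and miR-32 carry the seed of miR-92a and miR-20b-5p that of miR-17-5p:
miR-363: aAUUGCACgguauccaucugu
miR-32: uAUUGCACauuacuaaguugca
miR-20b-5p: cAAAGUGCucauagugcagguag
These 3 were detected on all 10 DRG arrays and on no soleus array, as were 30 of all 349 miRNAs, or 8.6%. The reverse, all soleus arrays and no DRG array, held for 1 miRNA, or 0.287%. On the scale common to 20 arrays they were at least 45.8-, 9.52- and 6.77-fold higher in the DRGs in that order, the soleus side being taken as the lowest signal of a detected miRNA on each array or the probe's own where higher. With quantile normalization the bounds were 10.9, 1.85 and 1.22. Of the other 6 relatives, miR-92b was detected on 1 array of each tissue and miR-106b* on 1 soleus array, and miR-20b-3p, miR-363*, miR-20a* and miR-25* on none.

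miR-32 was the relative with the clearest difference between injuries in the DRGs. It measured 30.3 on the sham array, 33.5, 29.96 and 30.1 after denervation, 12.5, 11.9 and 10.9 after entrapment and 14.1, 10.2 and 8.71 after decompression. Sham and denervation lay together at about the same level, and all 6 entrapment and decompression arrays lay below them. A split of these arrays without overlap, in either direction, was found for 34.1% of all 220 DRG miRNAs. The difference from sham was 0.04 ± 0.23 after denervation (limma adjusted p = 0.929), -1.37 ± 0.23 for entrapment (adjusted p of 0.00356) and -1.49 ± 0.23 for decompression (adjusted p of 0.00235). From denervation it differed by -1.41 ± 0.16 after entrapment and by -1.53 ± 0.16 after decompression, with limma adjusted p = 0.000277 and 0.000178. Such calls were common: after entrapment and decompression 17.7% and 19.1% of all DRG miRNAs were called lower than sham. Lower than denervation were 27.3% and 27.7%. miR-32 stayed below denervation past limma's threshold under each scaling tried, from -0.79 to -1.87 after entrapment. Against sham, the limma calls were lost with median scaling, where the differences were -0.53 after entrapment and -0.62 after decompression (adjusted p = 0.135 and 0.0801), and the entrapment call also with quantile normalization (adjusted p = 0.0573).

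Array control features split the DRG arrays the same way in 24 of 45 cases, as given above, and the part of that split in the miR-32 values was not tested. Before scaling, miR-32 read 7.68 to 12.5 on the entrapment and decompression arrays and 34.2 to 45.8 on sham and denervation. miR-25*, detected on no array, read -7.61 to -5.58 on the former and -3.96 to 0.29 on the latter. A factor for each array does not remove this offset, which weighs more on dim miRNAs, and its part in the miR-32 fold was not tested. miR-363 measured 74.7 on the DRG sham array and 60.4 to 99.4 on the injury arrays, with the groups overlapping, and miR-20b-5p 14.5 and 7.70 to 15.3. Neither was called by limma against sham or between injury groups, but the scaling decided this. With median scaling miR-363 was called higher than sham after entrapment and decompression, by 1.03 and 0.89, and higher than denervation after entrapment, by 0.62. Without scaling both were called lower than denervation after entrapment and decompression, miR-363 by -0.47 and -0.61 and miR-20b-5p by -0.87 and -0.94. The seed mates in the DRGs therefore differed in their values: miR-32 lay below sham after entrapment while miR-92a, miR-25 and miR-363 measured 78.8 to 92.7, 63.8 to 66.2 and 75.7 to 99.4 against sham levels of 72.1, 57.2 and 74.7.

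**Figure D5:**
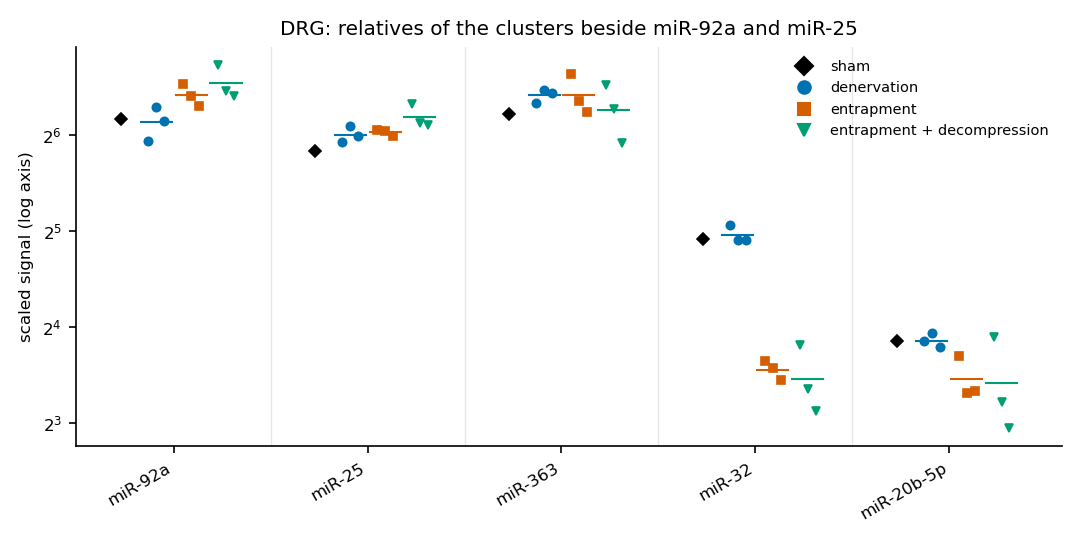
Scaled signal (log axis) on every DRG array of miR-92a and miR-25 and of 3 relatives outside the member list, miR-363 and miR-32 with the same seed and miR-20b-5p with that of miR-17-5p; symbols are single arrays, short lines group means. miR-32 lay at 29.96 to 33.5 on the sham and denervation arrays and at 8.71 to 14.1 on the entrapment and decompression arrays.

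Across the arrays, members of one cluster did not all move together, where miR-19b and miR-92a also count signal from their X-linked copies. In soleus, Pearson's r over the 10 arrays was 0.90 between miR-92a and miR-20a, 0.67 between miR-20a and miR-19b and 0.38 between miR-92a and miR-19b. In the other cluster it was 0.54 between miR-25 and miR-93, 0.16 between miR-25 and miR-106b and -0.24 between miR-93 and miR-106b. It was 0.98 between miR-92a and miR-93, which come from different clusters. The sham array, on which both were highest, is among these points. In the DRGs r was 0.89 between miR-19b and miR-20a, -0.13 between miR-20a and miR-92a and 0.83 between miR-92a and miR-25. The median was 0.46 within clusters and 0.46 between clusters in soleus, 0.51 and 0.24 in the DRGs, and 0.06 and 0.09 over all pairs of miRNAs. With group means removed from the 9 injury arrays, the medians were 0.85 within and 0.62 between clusters in soleus, 0.56 and 0.45 in the DRGs, and 0.07 and 0.28 over all pairs. These correlations are descriptions. Their points share the array and its scaling. The miRNAs outside the list with the mean pattern most like that of the members were miR-365, miR-33 and miR-100 in soleus (r = 0.86, 0.80 and 0.79 over 10 arrays, among 102 miRNAs) and miR-15b, miR-144 and miR-485 in the DRGs (r = 0.73, 0.72 and 0.68, among 167).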

How the data were processed

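Per the labels, RNA of 10 soleus and 10 DRG samples was hybridised to Agilent rat miRNA arrays. The authors deposited for each array the total gene signal, a background-subtracted intensity summed over the probes of a miRNA by Agilent Feature Extraction 9.5.3, beside an error estimate and a call of detected or not. No normalization between arrays had been applied to them. A second set of values, a table of processed signal deposited by the authors, served as an alternative. In its soleus columns the row named miR-17-3p holds the scanner value of miR-17-5p, within 1%, on 9 of 10 arrays. In the DRGs its entrapment and decompression columns hold the scanner values of the other group, up to a factor, so the table was also run with each column taken for the scanner array whose signals it holds, an alternative chosen after seeing the data.

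The scanner files name one miRNA miR-17 or miR-17-5p, and these were joined. 1 other miRNA with changing names was left out, which gave 349. Scaling brought the 75th percentile of every array to one value, taken in soleus over the 108 miRNAs detected throughout, where a median of 149.5 was detected per array, and over all 349 in the DRGs. Signals under the floor (the median over arrays of the lowest scaled signal called detected, 2.86 in soleus and 2.25 in the DRGs) were raised to the floor before conversion to log2. Testing covered miRNAs detected on 3 or more arrays of a tissue and used limma 3.58.1 in R 4.3.3 (lmFit, eBayes, two-sided, Benjamini-Hochberg at 0.05 over all tested miRNAs), with group as the only term and 6 residual degrees of freedom. The fit over both tissues used 102 miRNAs detected on all 20 arrays for scaling and had 12. The ± values are standard errors of the fit. The labels name the injury samples as experimental replicates without naming animals, so the p-values measure the spread between samples. No pair of arrays shared a miRNA signal.

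Members, relatives, markers and tests were chosen with earlier results of these data known. The text names every member by rule, relatives detected on all arrays of a tissue, and per tissue the 3 other miRNAs whose pattern was most like the mean of the members. The replicate numbers were tested as pairs between the injury groups of a tissue. After group means were removed, correlations of same-numbered samples ran from -0.47 to 0.20 in soleus and from -0.12 to 0.48 in the DRGs, so no pairing was used. The labels do not say whether soleus and DRG samples came from the same rats. Pairing across the tissues was not tested, and the comparisons between tissues took all arrays as independent. The number of arrays limits the precision. On simulated data limma recovered the changed miRNAs, which were given large changes and drawn only from miRNAs detected on every array. The simulated spread and array factors were set and not fitted to these data. Recovery there thus does not show the power for these members. Percentile scaling, the scaling used here, added false calls in soleus against sham and in both tissues between entrapment and denervation. The files used here have no slide or scan field, so these were not tested as batches. Figures used matplotlib 3.10.9 in Python 3.11.15.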

Additional observations from a re-analysis of the deposited data

Results flagged for a closer look

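The injury effect of 2 members differed between the tissues by the interaction term of the fit over 20 arrays. miR-92a lay below sham in soleus after each injury. In the DRGs it lay -0.04 from sham after denervation, 0.24 after entrapment and 0.36 after decompression. The difference of the effects (DRG minus soleus) was 1.54, 2.31 and 2.37 in the same order, with limma adjusted p = 0.0446, 0.00491 and 0.00343. The first was lost without any one of 10 of the 18 injury arrays, with adjusted p up to 0.0861, and the other 2 held. For miR-93 the differences were 1.78 after entrapment and 2.11 after decompression, with limma adjusted p = 0.0224 and 0.00820. With no scaling, the 5 differences ran from -0.39 to 0.52 and none was called. Each rests on 1 sham array in each tissue, and the part of the dim soleus sham array in them was not tested.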

How the results depend on the processing

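Counts are calls summed over the 3 comparisons, for 8 members. Against sham in soleus, limma made 5 calls, all lower. There were 0 with no scaling and in the processed table, 2 with loess or with only the groups compared in the fit, and 2, both higher, with quantile normalization or the percentile over all miRNAs. The 2-fold rule gave 9 in soleus, all lower, against 3 with quantile normalization, 2 with loess, 3 (2 of them higher) with the percentile over all miRNAs, 3 with no scaling and 6 in the processed table, the last 2 all higher. The processed table gave no value for soleus miR-17-5p, whose row is at its lowest value on all but 1 array. Between soleus injury groups limma made 0 calls, and 2, both higher, with quantile normalization or the percentile over all miRNAs.

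In the DRGs, limma made 3 calls against sham, all lower. There were 6 with no scaling, 1 in the processed table or with only miRNAs detected on all arrays, 0 with only the groups compared and 5 (2 higher) with no filter. Higher calls alone came with median scaling (12), quantile normalization (3) and loess (1). The 2-fold rule gave 0, and 1 with no scaling or at 1.5-fold and 2 with median scaling. Between DRG injury groups 3 calls (2 higher) became 11 with no scaling and 2 in the processed table, all lower, 14 with median scaling and 5 with quantile normalization, all higher, and 1 with only miRNAs detected on all arrays or with only the groups compared. These processed counts follow that table's own column names, which exchange entrapment and decompression. With its columns matched to the scanner arrays, an alternative chosen after seeing the data, there was 1 call against sham and there were 2, both lower, between injury groups.

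Within a tissue no pairing of samples by replicate number was used, though the correlations given above cannot show its absence. With the replicate number as a block, 1 call was made between DRG injury groups, lower, and 0 between those of soleus. Between the tissues 6 calls became 4 (3 lower) with the percentile over all 349 miRNAs, 3 lower with quantile normalization and 2 with no scaling, and 5 calls on the difference in injury effect became 4 lower, 7 (4 lower) and 0. Leaving out 1 array at a time gave 8 to 10 and 0 to 0 by the 2-fold rule in soleus and the DRGs, 3 to 6 and 1 to 3 against sham, 0 to 0 and 0 to 4 between injury groups, 6 to 6 between tissues and 4 to 7 for the injury effect. The soleus count against sham was lowest without denervation array 2 or any entrapment array.

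Single differences changed sign as follows. With median scaling, DRG miR-17-5p was 0.27 and 0.39 above sham after entrapment and decompression and miR-19a 0.058 above denervation after entrapment. With no scaling, decompression minus denervation in the DRGs was -0.029 for miR-92a and -0.23 for miR-93, soleus miR-19a was 0.26 above sham after entrapment and miR-93 0.016 after denervation, and the miR-93 effect of entrapment differed by -0.39 between tissues. In the processed table the DRG columns named decompression gave -0.024 for miR-93 against denervation, and those matching the scanner arrays of decompression 0.14, so the turn came from the exchanged names. In that table soleus miR-19a 0.82 above sham after entrapment, and miR-92a and miR-93 were 0.37 and 0.47 above after denervation and 0.31 and 0.48 after entrapment. DRG minus soleus was -0.29 and -0.22 for miR-106b and miR-93 with the percentile over all miRNAs, and -0.17, -0.76 and -0.67 for miR-106b, miR-93 and miR-19a with quantile normalization. The ratio of miR-20a to miR-19b was 0.10 over the injury groups alone, an alternative chosen after seeing the data. Of 238 recomputed single differences, 134 kept their direction and their side of the threshold. The causes were not tested.

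The limits are those of the design: 1 sham array in each tissue, the dimmest in soleus, carries every comparison with sham. Tissue and array batch cannot be told apart, and in soleus file layout cannot in part be told apart from the groups. Signals of miR-17-5p and miR-19a in soleus lay near the detection limit, with a median relative error of 19.4% for miR-17-5p against 8.47% for miR-92a. In both tissues miR-17-3p, detected on no array, read lower on the entrapment and decompression arrays than on the others. That offset was not removed, and its part in the DRG calls of miR-17-5p and miR-19a was not tested.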
